A study of Microtus ochrogaster with 51 samples.

Results

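Female prairie voles that lived for 6 weeks with a mate were compared with females taken from their mate after 2 weeks and housed apart for 4 weeks. The animals were those labelled female in cohort batches 3 and 4, which gave 15 libraries of the 51 in the series: 12 from the separated group (4wk_sep) and 3 from the 6-week group (6wk_pair). Each library was polyA RNA from the dissected nucleus accumbens of 1 animal, named here by its pair number. The separated females were pairs 17, 19, 20, 21 and 24 in cohort 3 and pairs 25, 26, 28, 29, 30, 31 and 32 in cohort 4. The 6-week females were pairs 18 and 22 in cohort 3 and pair 27 in cohort 4. All were bred at the University of Colorado and all had been mated to a male; the labels state neither age nor reproductive state. The treatment label and the design text give the separation as 4 weeks, which puts both groups 6 weeks after the start of pairing. The treatment protocol states no such interval and can also be read as separation at 2 weeks followed by killing, in which case the separated females would be earlier in time than the 6-week females. Every difference below is between these labelled groups, and it compares losing the mate with staying at the same time since pairing only if the 4 weeks of the label hold.

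Prairie voles are socially monogamous rodents that form lasting pair bonds with a mate. The nucleus accumbens, a part of the ventral striatum built mainly of medium spiny neurons that receive dopamine, takes part in forming and keeping that bond, and its oxytocin and dopamine receptors are known to matter for partner preference. Separation from a bonded partner is used in this species as a model of social loss.

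Across the genes tested, no transcript level differed between separated and 6-week paired females after adjustment for multiple testing. Of 13104 gene identifiers with a mean of at least 1 TPM (a length-scaled level relative to the total of the library) over the 15 libraries, 0% passed an adjusted p of 0.05 in limma with cohort as a covariate. An unadjusted p under 0.05 in limma was reached by 76 identifiers, or 0.58%, of which 44 were higher and 32 lower in the separated females. P-values spread evenly from 0 to 1 would give 655, so these were not spread evenly. The reason was not tested, and the shortfall does not show that the groups are alike. Lowly expressed ENSMOCG00000017273 and ENSMOCG00000020386 passed when the filter on low values was dropped, and both were lower in the separated females. The identifiers are Ensembl vole gene IDs, and the files do not pair them with gene names, so known pathway, receptor and cell type genes were not located, and the tissue was not checked against its marker genes.

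ENSMOCG00000008403 was picked with the sex labels in view, as the identifier at 0 in every one of the 26 males of the series and above 0 in the most females, so its values describe the labelled sexes and do not test the labels. It was above 0 in 23 of 25 females, where the next identifier at 0 in all males reached 13, and in 14 of the 15 females compared here. All 3 females of the 6-week group had it, at 16.6 TPM in pair 18, 5.92 TPM in pair 22 and 6.39 TPM in pair 27. Among the separated females it ran from 0 in pair 25 to 25.2 TPM in pair 32, with a median of 7.83 TPM, and these levels rest on at most 12 reads in a library.

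The libraries differed among themselves more than the groups did. The first principal component of log2(TPM + 0.5) held 56.9% of the variance, and each group spanned most of it. Pair 17 of the separated group had 3380 genes at least 2-fold away from the mean of the other separated females, 3267 of them higher, and pair 18 of the 6-week group had 2197 such genes, 2018 of them higher. Pairs 22 and 27, the other 6-week females, had 368 and 367, fewer than any separated female, whose lowest count was 441 in pair 20. Pairs 17 and 18 also had the lowest mean correlation with the other libraries, at 0.908 and 0.911. None of 4 measures of library make-up separated the groups in an exact two-sided permutation test within cohorts, where the smallest p that the design allows is 0.006. The separated females had 15818 ± 347 identifiers above 0 (SD, n = 12) and the 6-week females 16027 ± 247 (SD, n = 3), with an exact permutation p of 0.399. The share of TPM held by the 11 most abundant identifiers was 45.1% ± 6.80 in the separated and 45.1% ± 1.70 in the 6-week group, with an exact permutation p of 0.988. Adjusted over 4 measures, the p was 0.988 for each.

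**Figure D1:**
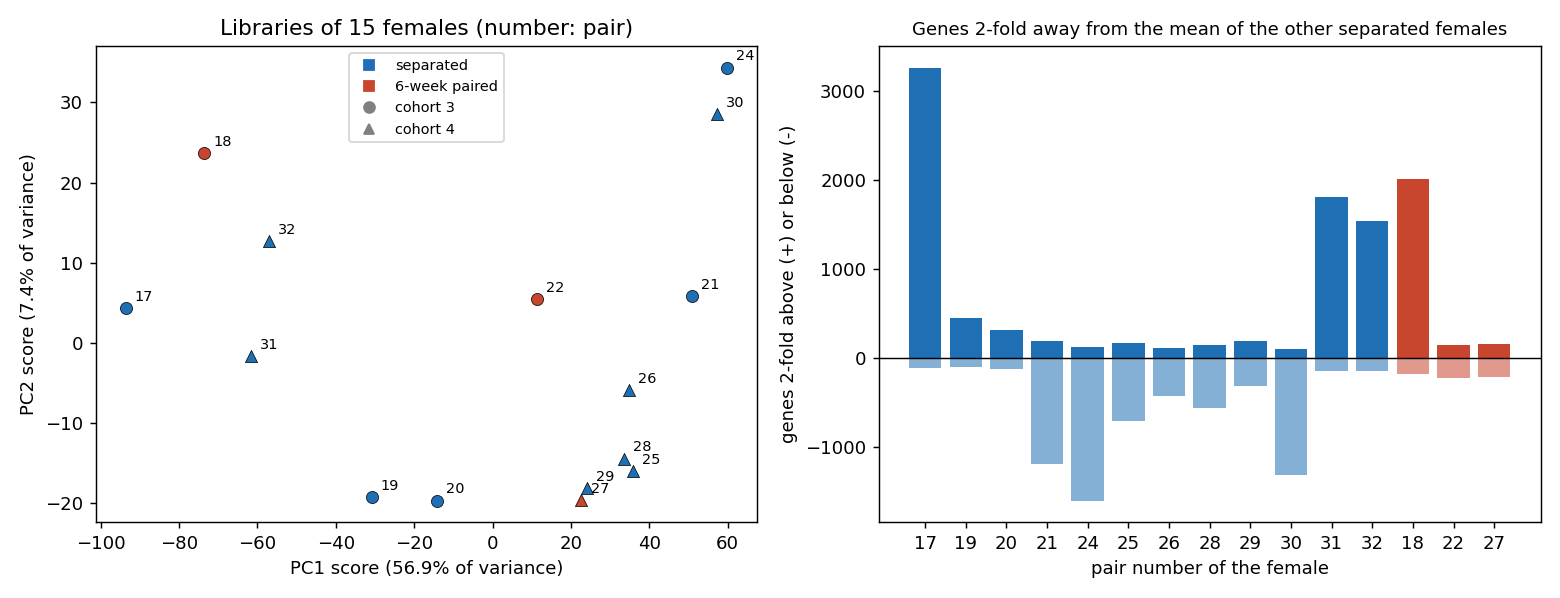
Left, the 15 female libraries on the first and second principal components of log2(TPM + 0.5), numbered by pair, with color for group and shape for cohort; right, genes at least 2-fold above (up) or below (down) the mean of the other separated females, per library. Separated pair 17 and 6-week pair 18 lie at the left end of the first component, and the 6-week pairs 22 and 27 have the fewest genes away from the separated mean.

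Most transcript levels of the 6-week females lay within the range of the separated females. This held for 87.7% of the 13104 tested identifiers in pair 18, 93.3% in pair 22, 95.3% in pair 27 and 79.3% in all 3 at once. A separated female set against the other 11 had between 52.2% (pair 17) and 93.7% (pair 26) of the identifiers within their range. The median SD of a gene's log2 level was 0.431 over the separated and 0.349 over the 6-week females.

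The fit leaves room for modest differences. The median log2 difference, separated minus 6-week, was -0.03, with the middle 50% of identifiers between -0.16 and 0.08, and the median standard error was 0.283. For 9452 identifiers, 72.1% of those tested, the unadjusted 95% interval lay within a 2-fold difference in either direction; for the rest, these 15 libraries do not settle whether the levels differ by 2-fold. Precision rose with level. That share was 54.6% of the 5666 identifiers between 1 and 10 TPM, 84.3% of the 6486 between 10 and 100 TPM, and 93.1% of the 952 at 100 TPM or more. Of the 76 identifiers with an unadjusted p under 0.05, 46 were in the lowest class (23 higher, 23 lower), 29 in the middle class (21 higher, 8 lower) and 1, lower, in the highest. A fitted difference beyond 2-fold was seen for 98 identifiers, 44 higher and 54 lower, 73 of them in the lowest class. In bulk tissue, fewer cells of a type and less RNA per cell cannot be told apart, here and in each value that follows.

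**Figure D2:**
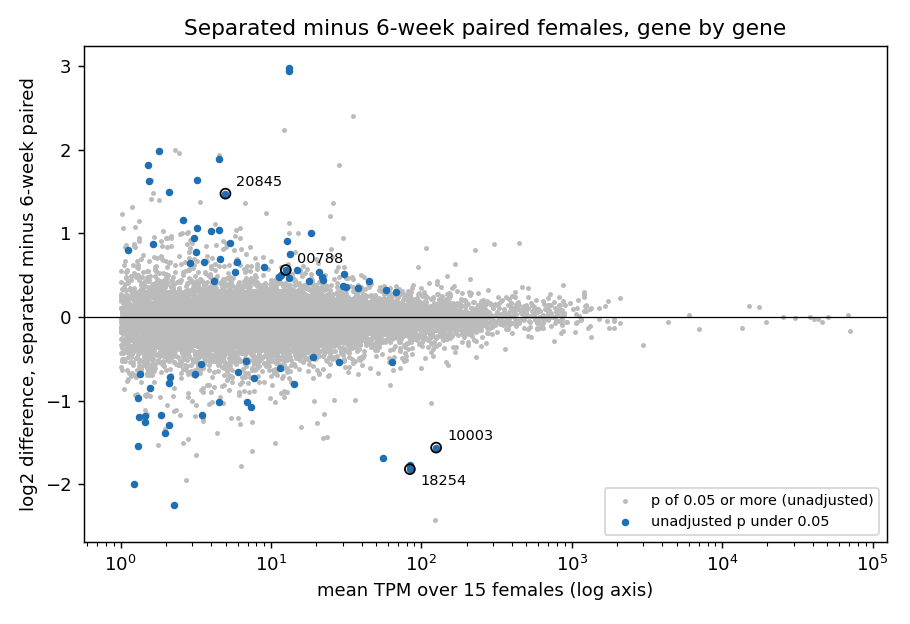
Fitted log2 difference, separated minus 6-week paired females, against mean TPM over the 15 libraries (log axis), 1 point per gene identifier, with unadjusted p under 0.05 in blue. The 4 circled points are the identifiers with the smallest p in each direction, labelled by their last 5 digits; 76 points are blue and none passed after adjustment.

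The groups did not overlap for 6 identifiers, 0.0458% of those tested, and in all of these every separated female was above every 6-week female. Their log2 differences ran from 0.285 to 1.47 and their unadjusted p-values from 0.000403 to 0.101, with 5 under 0.05. No identifier that passed the filter had every separated female below every 6-week female. The filter is a mean over 15 libraries, 12 of them separated, so it less readily keeps identifiers high only in 6-week females. It kept 20 of the 1085 identifiers found in separated females only and 1 of the 178 found in 6-week females only. With no filter, 9 of 18163 identifiers had every separated female above every 6-week female, and 5 had every one below. The count that exchanged group labels would give was not worked out, so these counts only describe the groups. In males of the same cohorts, the log2 differences of these 6 identifiers ran from -0.225 to 0.607.

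ENSMOCG00000020845 had the smallest p among the identifiers that were higher in separated females. The 6-week females were at 1.54 TPM (pair 18), 1.68 TPM (pair 22) and 1.77 TPM (pair 27), while the separated females ran from 2.28 to 10.1 TPM with a median of 5.31. Every separated female, in either cohort, was above every 6-week female, and the lowest, pair 24, was the closest. The means were 5.81 ± 2.18 TPM (SD, n = 12) and 1.66 ± 0.117 TPM (SD, n = 3), and the fitted log2 difference was 1.47 ± 0.33 (SE; 95% interval 0.77 to 2.18). This is 2.78-fold on the log2(TPM + 0.5) scale, with an unadjusted p of 0.000403 and an adjusted p of 1, so it did not pass in limma. Within cohort 3 the separated mean was 6.13 ± 2.45 TPM against 1.61, and within cohort 4 it was 5.58 ± 2.13 TPM against 1.77 in the single 6-week female. The separated levels rest on 32 to 114 reads per library.

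The low level of ENSMOCG00000020845 in the 6-week females was not shared by all males that stayed paired for 6 weeks. Those males were at 3.46 TPM (pair 18), 7.40 TPM (pair 22) and 1.66 TPM (pair 27), within the range of 1.12 to 24.2 TPM of the 13 separated males. The male difference was 0.55 ± 0.44 on the log2 scale, and the female minus male difference of 1.04 ± 0.62 had an unadjusted p of 0.104 and an adjusted p of 1 in limma. Females paired for 2 weeks, which were in cohorts 1 and 2, ran from 1.81 to 17.8 TPM with a mean of 5.13 ± 4.67 (SD, n = 10). Males paired for 2 weeks had a mean of 3.12 ± 1.27 (SD, n = 10). No cohort holds both 2-week animals and separated or 6-week animals. Treatment and cohort cannot be told apart there, nor in any later 2-week value. The highest 2-week female, pair 15, and the highest separated male, pair 23, were left out of the authors' normalized counts.

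ENSMOCG00000000788, the second of the higher identifiers by p, showed a smaller and more even difference. The 6-week females were at 7.40 TPM (pair 18), 9.65 TPM (pair 22) and 9.36 TPM (pair 27), and the separated females ran from 10.7 to 15.4 TPM with a median of 14.1. The groups again did not overlap, and the gap between the highest 6-week and the lowest separated female was small next to the spread of the separated females. The means were 13.5 ± 1.57 TPM (SD, n = 12) and 8.80 ± 1.22 TPM (SD, n = 3). The fitted log2 difference was 0.56 ± 0.16 (95% interval 0.22 to 0.90), or 1.48-fold, with an unadjusted p of 0.0029 and an adjusted p of 1 in limma. Counts of 208 to 434 reads stood behind each separated level.

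Males gave a difference of similar size for ENSMOCG00000000788. The 6-week males were at 7.49 TPM (pair 18), 9.40 TPM (pair 22) and 7.96 TPM (pair 27), and the separated males ran from 8.87 to 20.2 TPM around a mean of 13 ± 3.47 (SD, n = 13). The male groups overlapped, since the 6-week male of pair 22 was above the lowest separated males. The male log2 difference was 0.59 ± 0.19, with an unadjusted p of 0.00472 and an adjusted p of 1 in limma. The female minus male difference was 0.0092 ± 0.272, with a 95% interval of -0.55 to 0.56 that still allows the sexes to differ. After 2 weeks of pairing, females were at 13.6 ± 6.44 TPM (SD, n = 10), from 6.25 to 27.8, and males at 13 ± 5.78 TPM (SD, n = 10). The authors' normalized counts leave out the female and male of pair 15, at 27.8 and 27.4 TPM. They also leave out the separated male of pair 23, at 20.2 TPM.

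**Figure D3:**
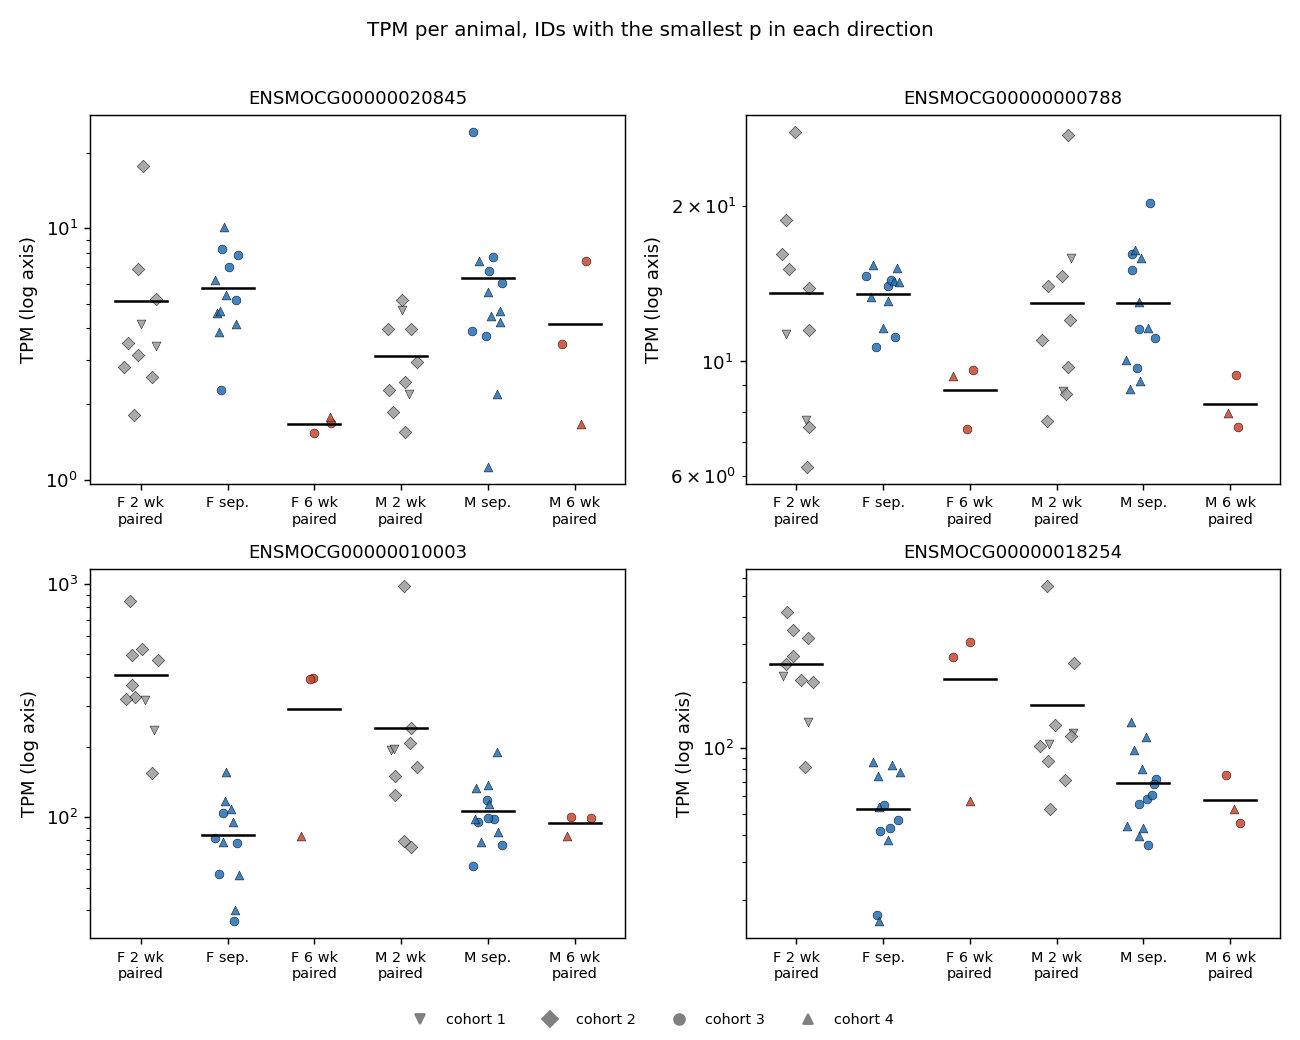
TPM (log axis) in each animal of the 6 groups for the 4 identifiers with the smallest p in each direction; points are animals, lines are group means and shapes are cohorts. For the upper 2 identifiers every separated female lies above all 3 females paired for 6 weeks, and for the lower 2 the 6-week female of cohort 4 lies among the separated females.

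Among the identifiers that were lower in separated females, ENSMOCG00000010003 had the smallest p. The 6-week females were at 394 TPM (pair 18), 392 TPM (pair 22) and 83.4 TPM (pair 27), and the separated females ran from 35.8 to 157 TPM with a median of 79.9. Pairs 18 and 22, both of cohort 3, were above all separated females, whereas pair 27, of cohort 4, was above 7 of them and below 5. The means were 84.3 ± 34.9 TPM (SD, n = 12) and 290 ± 179 TPM (SD, n = 3), and the fitted log2 difference was -1.56 ± 0.47 (95% interval -2.55 to -0.57), with an unadjusted p of 0.00428 and an adjusted p of 1 in limma. That is a 2.95-fold lower level in the separated females on the log2(TPM + 0.5) scale. It came from cohort 3, where the separated mean was 71.4 ± 26 TPM (SD, n = 5) against 393; in cohort 4 it was 93.4 ± 39.3 TPM (SD, n = 7) against 83.4. With cohort 3 alone the log2 difference was -2.54, and with cohort 4 alone it was 0.042. Leaving out pair 18 gave -1.22 and leaving out pair 22 gave -1.22.

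In the other groups, ENSMOCG00000010003 was high where females had been paired for 2 weeks, at 407 ± 193 TPM (SD, n = 10), with every animal between 156 and 849. All 2-week animals were in cohorts 1 and 2, so treatment and cohort cannot be told apart for their levels. Males paired for 2 weeks were at 241 ± 265 TPM (SD, n = 10), with a median of 180 and a highest value of 980. Males paired for 6 weeks were at 94.5 ± 10.1 TPM (SD, n = 3) and separated males at 107 ± 33.2 TPM (SD, n = 13), and no male of these last groups was near the 2 high 6-week females. The male log2 difference was 0.11 ± 0.38. The female minus male difference was -1.72 ± 0.53, with an unadjusted p of 0.00286 and an adjusted p of 1 in limma.

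ENSMOCG00000018254 had the same layout over the animals. The 6-week females were at 305 TPM (pair 18), 263 TPM (pair 22) and 57.2 TPM (pair 27), and the separated females ran from 16 to 86.1 TPM with a median of 50.4. Here too pairs 18 and 22 were above every separated female and pair 27 lay within them, above 8 and below 4. The means were 52.7 ± 23.8 TPM (SD, n = 12) and 208 ± 133 TPM (SD, n = 3), and the fitted log2 difference was -1.82 ± 0.55 (95% interval -2.98 to -0.66), or 3.52-fold lower, with an unadjusted p of 0.00433 and an adjusted p of 1 in limma. Within cohort 3 the separated mean was 40.7 ± 14.2 TPM against 284 ± 30.1, and within cohort 4 it was 61.3 ± 26.4 TPM against 57.2. The log2 difference was -2.88 with cohort 3 alone and -0.078 with cohort 4 alone, and weighting the libraries by their quality gave -1.19.

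Females paired for 2 weeks were at 243 ± 101 TPM (SD, n = 10) for ENSMOCG00000018254, from 82.2 to 422, and males paired for 2 weeks at 158 ± 149 TPM (SD, n = 10), with a median of 109 and a highest value of 555. Separated males were at 69.2 ± 29.5 TPM (SD, n = 13) and 6-week males at 57.9 ± 15.8 TPM (SD, n = 3), and the 6-week males lay among the separated ones. The male log2 difference was 0.16 ± 0.46, and the female minus male difference of -2.00 ± 0.65 had an unadjusted p of 0.00411 and an adjusted p of 1 in limma. Pair 18 was the 6-week library with 2018 genes at least 2-fold above the separated mean, whereas pair 22 had 142. With principal component 1 as a covariate, the log2 difference was -1.60 for ENSMOCG00000010003 and -1.845 for ENSMOCG00000018254. With library weights it was -1.04 and -1.19 in that order. The part of library make-up in the levels of the 2 identifiers was not otherwise tested.

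A pair of identifiers with low levels separated the groups of females more cleanly than any of these. With no filter on low values, 18163 identifiers entered the fit and 2, or 0.011%, passed an adjusted p of 0.05 in limma, both lower in the separated females. An unadjusted p under 0.05 was reached there by 77 higher and 219 lower identifiers. The number that passed was 8 without pair 18, 5 without pair 22 and 6 without pair 27, so it turns on single 6-week females.

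ENSMOCG00000017273 was present in every 6-week female, at 2.57 TPM (pair 18), 3.14 TPM (pair 22) and 1.14 TPM (pair 27). In the separated females it was listed at 0 in all 12 libraries, and not 1 of their 320396286 reads assigned to genes fell on it; a count of 0 allows up to 3 reads in the total. The groups were apart in both cohorts. The log2 difference was -2.35 ± 0.15 with an adjusted p of 2.94e-06 in limma, a size that depends on the pseudocount because the separated females are all at 0. Over 29 alternatives it ran from -4.41 to -1.62 and stayed past the threshold in each. The error and the p pool 12 libraries at 0, which have no spread, with 3 that ran from 1.14 to 3.14 TPM. They do not measure the spread among the 6-week females.

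In the rest of the series, where the 2-week animals are all of cohorts 1 and 2, ENSMOCG00000017273 was found only in paired females. All 10 females paired for 2 weeks had it, from 0.0586 to 9.47 TPM with a mean of 3.71 ± 2.82 (SD, n = 10), on 1 to 172 reads in the libraries with recovered reads. Every male was listed at 0: 10 paired for 2 weeks, 13 separated and 3 paired for 6 weeks. The female minus male difference of -2.40 ± 0.15 restates the female difference, since the males are at 0 in each group.

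ENSMOCG00000020386, which falls outside the naming rule and was chosen after its values were seen, had a similar pattern at a lower level. The 6-week females were at 0.987 TPM (pair 18), 0.888 TPM (pair 22) and 0.940 TPM (pair 27). It was at 0 in 9 separated females and at 0.0945 TPM (pair 20, 1 read), 0.160 TPM (pair 31, 2 reads) and 0.161 TPM (pair 32, 2 reads) in the others. No separated female came near the lowest 6-week female. The log2 difference was -1.45 ± 0.12 with an adjusted p of 2.72e-05 in limma. Its size depends on the pseudocount, at -3.11 with 0.1 TPM and -0.915 with 1 TPM. The error and the p rest mostly on separated libraries at or near 0 and on 3 6-week levels that lay close together. They do not measure how much paired females vary. The difference stayed past the threshold in 28 of 29 alternatives. The other was cohort 4 alone, with 1 6-week female, at a log2 difference of -1.41.

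All 10 females paired for 2 weeks also had ENSMOCG00000020386, at 0.967 ± 0.799 TPM (SD, n = 10), from 0.0885 to 2.70 TPM. In males it was above 0 in 3 of 10 paired for 2 weeks, in 3 of 13 separated, and in 2 of 3 paired for 6 weeks, and no male exceeded 0.254 TPM. The male difference without the filter was -0.21 ± 0.12, of the same sign, with an unadjusted p of 0.0817 in limma. The female minus male difference was -1.21 ± 0.17 with an adjusted p of 0.00046 in limma. Since males were near 0 in both groups, a lower level in separated males had little room to show. The lowest 2-week female, at 0.0885 TPM, was below the highest separated female, so the 2-week and separated ranges overlapped.

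**Figure D4:**
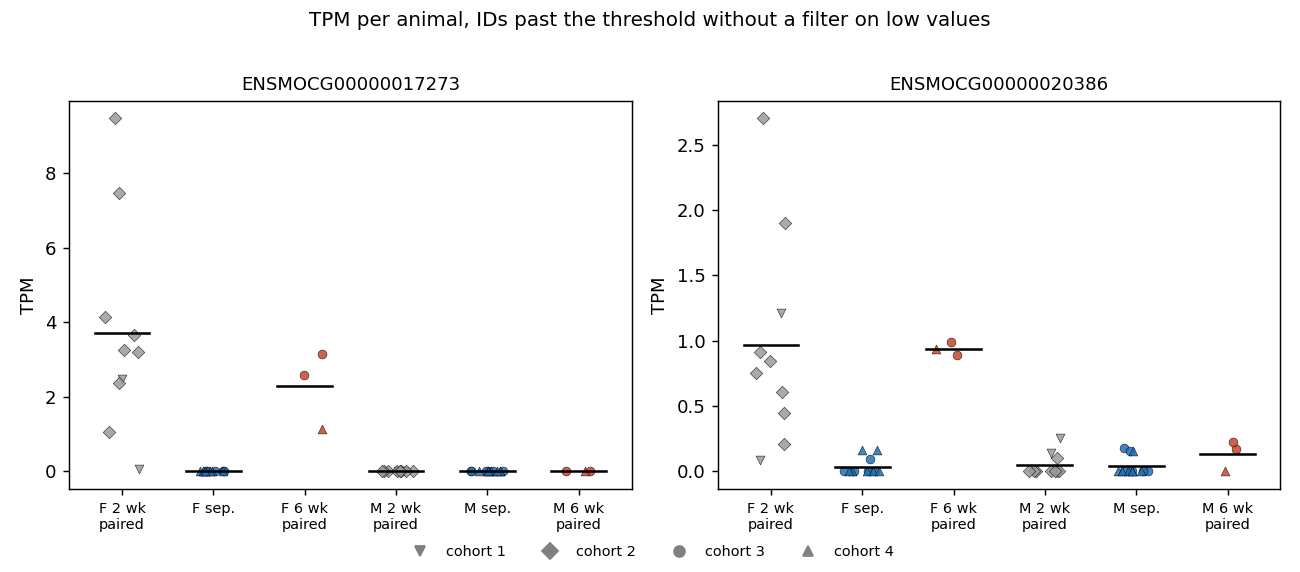
TPM (linear axis) in each animal of the 6 groups for the 2 identifiers that passed without a filter on low values; points are animals, lines are group means and shapes are cohorts. Left, ENSMOCG00000017273 is above 0 in the paired females and at 0 in separated females and in all males; right, ENSMOCG00000020386 is near 0.9 TPM in all 3 6-week females and at most 0.161 TPM in the separated females.

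The sexes were compared in 1 fit of the 31 libraries of cohorts 3 and 4. Of 13110 identifiers that passed the filter, 0% had a female minus male difference at an adjusted p of 0.05 in limma, and 41 had an unadjusted p under 0.05. Without the filter, 2 of 18655, or 0.0107%, passed, both more negative in females. They were ENSMOCG00000017273, which every male lacks, and ENSMOCG00000020386, which is near 0 in males. For the male difference in that fit of 31 libraries, 0 of 13110 identifiers passed and 87 had an unadjusted p under 0.05. Without the filter, 1 of 18655 passed for the male difference in limma, lower in the separated males. Among 13018 identifiers tested in each sex, 3 had an unadjusted p under 0.05 in both, which is 4.11% of the 73 in the female list and 3.45% of the 87 in the male list; the male list is 0.668% of the 13018. All 3 had the same sign. The sign was shared by 63.4% of all identifiers and by 60.3% of the female list. The animals of a pair named in both sexes were mates, and the residual correlation between partners over all genes was estimated at 0.583. With the pair as a block, the count of identifiers past the threshold was 0 in females and 0 for the female minus male difference; ENSMOCG00000010003 gave -1.60 and ENSMOCG00000018254 -1.86 under the block.

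**Figure D5:**
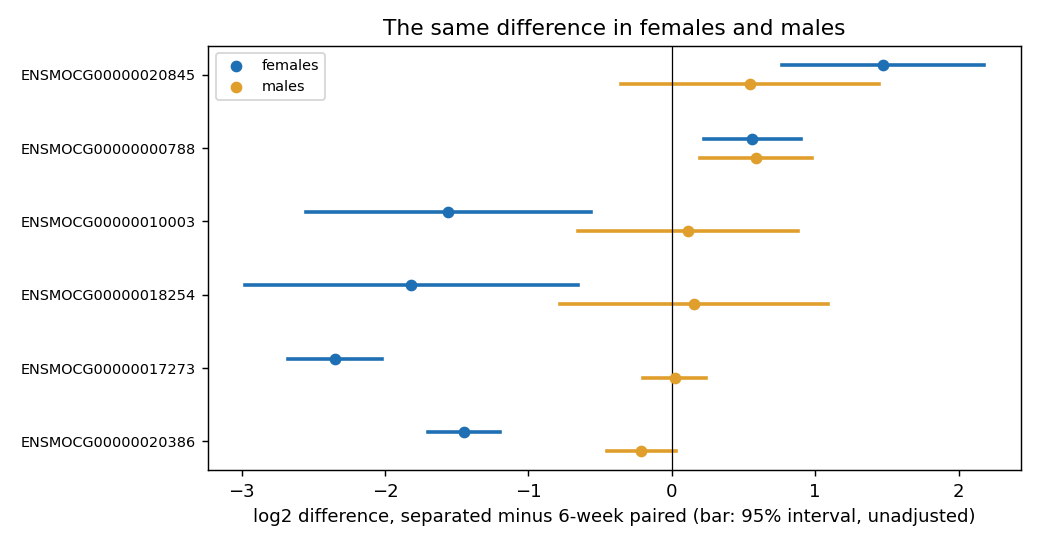
Fitted log2 difference, separated minus 6-week paired, in females (blue) and males (orange) for 6 identifiers. Points are estimates and bars unadjusted 95% intervals. Male values come from the fit of 31 libraries. For an identifier at 0 in all males, the male bar rests on the spread among females and of other genes. The female intervals of the lower 4 identifiers lie below 0, while their male intervals include 0.

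Presence and absence were also counted over all 23038 identifiers of the table. Of these, 16900 were above 0 in at least 1 female of each group, 13854 in all 15, and 4875 in none. Separated females alone showed 1085 identifiers and 6-week females alone 178, counts that differ with the 12 and 3 libraries behind them. Most of the 1085 were at the edge of detection: 540 were in 1 library and 263 in 2, the median of their mean levels was 0.0304 TPM, and 762 (70.2%) never exceeded 3 reads in any separated female. None was in more than 10 of the 12. Of the 178, 165 were in 1 library, 12 in 2, and 1, ENSMOCG00000017273, in all 3; the reads behind the 6-week levels are unknown. Without pair 18 the 6-week-only count was 102.

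Most of the separated-only identifiers were also found in 2-week paired females, at 637 (58.7%) of the 1085. In males of cohorts 3 and 4, 799 (73.6%) were above 0 in at least 1 animal. Of those males, 13 were themselves separated and 3 were paired for 6 weeks, so this count does not tell separation from pairing. No other library of the series held 164 of the 1085. Of the 178, 83 (46.6%) were in a 2-week paired female and 101 (56.7%) in a male of cohorts 3 and 4, and 51 were in no other library. Only 26 of the 1085 and 15 of the 178 reached a mean of 1 TPM in their group.

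The separated-only identifiers found in the most females were ENSMOCG00000017365, ENSMOCG00000003874 and ENSMOCG00000016909, each above 0 in 10 of 12; the last falls outside the naming rule and was chosen after its values were seen. ENSMOCG00000017365 averaged 0.507 ± 0.507 TPM (SD, n = 12), at most 1.44 TPM and 7 reads. It was above 0 in 8 of 10 females and 4 of 10 males paired for 2 weeks, in 12 of 13 separated males and in all 3 males paired for 6 weeks, so animals without it occurred in 4 of the other 5 groups too. ENSMOCG00000003874 averaged 0.130 ± 0.185 TPM (SD, n = 12), at most 0.664 TPM and 12 reads, and was above 0 in 1 of 10 females and 1 of 10 males paired for 2 weeks, 6 of 13 separated males and 3 of 3 males paired for 6 weeks. ENSMOCG00000016909 averaged 0.0832 ± 0.0790 TPM (SD, n = 12) on at most 17 reads, and most males had it as well. The log2 differences were 0.86 ± 0.40, 0.26 ± 0.20 and 0.24 ± 0.12 in that order, each with an adjusted p of 1 in limma without the filter.

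ENSMOCG00000004649 was 1 of 12 6-week-only identifiers present in 2 of 3 females, and the one with the highest mean TPM in that group. It was at 5.12 TPM in pair 18, 3.26 TPM in pair 22 and 0 in pair 27, and at 0 with 0 reads in all 12 separated females. As for ENSMOCG00000010003 and ENSMOCG00000018254, the 2 females of cohort 3 were above all separated females and the female of cohort 4 was not. Here the levels were far lower, and the reads behind them are unknown. The log2 difference was -1.98 ± 0.41 with an adjusted p of 0.775 in limma. Without pair 27 it was -3.20, and with cohort 3 alone -3.20. Both fits drop the only 6-week female at 0 and keep separated libraries that are all at 0. The identifier was chosen for those values, so p-values from these fits test nothing and are not given. Levels above 0 were also seen in 1 of 10 females paired for 2 weeks, at 3.25 TPM on 2 reads, in 2 of 10 males paired for 2 weeks, at most 3.70 TPM on 2 reads, and in 2 of 13 separated males, at most 8.83 TPM on 5 reads.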

How the data were processed

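Bulk polyA RNA of the nucleus accumbens was sequenced per animal. The authors deposited a table of TPM for all 51 libraries, with the same total in every library. They also deposited normalized counts for 42 libraries (a signal: reads divided by 1 size factor per library, per the deposited values). These leave out the libraries paired for 6 weeks, both animals of pair 15 and the separated male of pair 23. The TPM values and fits that cover those animals kept them. DESeq2 and DESeq are named without version in the submitters' processing notes; aligner, counter, genome build, strand setting and annotation: not given in the sources used here. Since TPM keeps no depth and the 6-week libraries are in the TPM table only, no count test of this comparison was run. Whole reads were recovered from the normalized counts (100% of values within 0.01 of a whole number). Separated females had 20067514 to 31489606 reads on genes, with a median of 26989166.5; the depth of the 6-week libraries is unknown.

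TPM was analysed as log2(TPM + 0.5) with cohort as a covariate in limma 3.58.1 (R 4.3.3), with Benjamini-Hochberg adjustment over all identifiers with a mean of at least 1 TPM over the libraries fitted, and again with no filter. Males and the difference between sexes were fitted over 31 libraries. The named identifiers were the 2 with the smallest p in each direction and the 2 per group found in that group alone in the most libraries. The script was tested on simulated data. Alternatives were the pseudocount, the filter, scaling, cohort, library weights, principal component 1, the sample set, pair as a block and leaving out each library. The labels name the pairs, and partners share a pair number, so the block follows the labels; consensus correlation was 0.583. Separated and 6-week animals are different pairs, so no pairing exists within females. Of 23038 identifiers, 0 matched a name among the 26397 genes of the RefSeq table (MicOch1.0), so planned gene and marker lists were not applied. Females were separate animals per the labels. Members and lists were chosen with earlier results of these data known; cohort 4 alone and leaving out pairs 17 and 18 together were added after seeing the data.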

Additional observations from a re-analysis of the deposited data

Results flagged for a closer look

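ENSMOCG00000020386 had a female minus male difference of -1.21 (adjusted p 0.00046, interaction test in limma without a filter). Males were near 0 in both groups, at a mean of 0.0374 TPM when separated and 0.130 TPM after 6 weeks of pairing. A lower level in separated males therefore had little room to show, and the value largely restates the female difference. ENSMOCG00000017273 also passed that test at -2.40. It is at 0 in all 26 males, so its value only restates the female difference and its error is set by libraries at 0. Each was at or near 0 in all 12 separated females and higher in 3 of 3 6-week females.

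Single animals far from the rest of their group were found only in the groups paired for 2 weeks, which are outside the comparison; the separated and 6-week groups have too many or too few animals for the test. There were 9 such animals' values in 19 groups of 10 tested. Chance flags about 1 in 20 where values are normal, which was not checked for these TPM. An animal alone above 0 in its group is flagged whatever its level, so the count cannot be set against that rate. ENSMOCG00000020845 was at 17.8 TPM in the female of pair 15 (next 6.91), and ENSMOCG00000000788 at 27.4 TPM in the male of pair 15 (next 15.8). Both animals of pair 15 were left out of the authors' normalized counts. ENSMOCG00000010003 was at 849 TPM in the female of pair 12 (next 525) and at 980 TPM in the male of pair 11 (next 241). That male was also at 555 TPM for ENSMOCG00000018254 (next 245). ENSMOCG00000017365 was at 0.968 TPM in the male of pair 8 (next 0.351). The others were the only animals above 0 in their group: 0.0511 TPM in the female of pair 16 and 0.270 TPM in the male of pair 13 for ENSMOCG00000003874, and 3.25 TPM in the female of pair 9 for ENSMOCG00000004649.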

How the results depend on the processing

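The count of identifiers past the threshold in females was 0 in 30 of 31 alternatives, and 2 with no filter on low values; the lowest adjusted p among the filtered fits was 0.0568, with cohort 4 alone. The female minus male count was 0 in 18 of 19 alternatives and 2 with no filter. With the pair as a replicate block both counts were 0, and the block changed no call among the named identifiers. The direction of ENSMOCG00000010003 turned with cohort 4 alone (0.042), where the 6-week group is 1 female assumed to vary like the others. Without a filter the count of calls moved from 2 to 8 with cohort 3 alone, 33 with cohort 4 alone, 8 without pair 18, 8 without pairs 17 and 18 together, 5 without pair 22, 6 without pair 27, 4 with library weights, and 5 over 31 libraries with no block or over all 51. Leaving out each female in turn gave -0.112 to 0.0733 for the female minus male difference of ENSMOCG00000000788 and 102 to 211 identifiers found in 6-week females only, the fewest without pair 18. The differences in library measures turned sign with single libraries: -0.99 to 1.01 points for the share of the 11 most abundant identifiers, -13.8 to 34.4 for principal component 1 and -0.0119 to 0.00747 for the mean correlation. Scaling moved the median log2 difference by less than 0.1. With 3 females in the 6-week group, whose depth is unknown, low levels there are the least certain.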
